A study of Gallus gallus with 6 samples.

Results

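Adipose tissue of the chicken was set against 4 mixes of tissues on Affymetrix chicken arrays, with 1 array of adipose tissue and 1 array of each mix, 5 of the 6 arrays of the series. These 5 were chosen by their titles, and the array not in the comparison is of liver, whose signal is given in places beside the others. The adipose tissue, mix 1, mix 2, mix 3 and mix 4 all came from males of Arbor Acres, a chicken bred for meat, at 49 days of age, fed a commercial corn and soybean diet, with no treatment named for any of them. The labels say that 21 tissues were taken, but they name neither the tissues in a mix nor their shares, nor the depot the fat came from, nor whether 1 bird or several gave the RNA. Since each mix is numbered apart, the mixes are not replicates of one another, and adipose has 1 array. The question was which genes are prominent in adipose tissue, here beyond the well-known fat-cell genes: its signals, receptors, vessels, matrix and other cells.

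White adipose tissue stores energy as triglyceride in lipid droplets of large fat cells, which release fatty acids when hormones raise cyclic AMP and store them when fed. In birds most fatty acids are made in the liver and carried to fat cells as lipoprotein triglyceride, so uptake weighs more than synthesis in this tissue. Fat cells make up much of its volume, but many of its cells are endothelial cells, stromal progenitors and immune cells, set in a matrix of collagens, microfibrils and basement membrane. The chicken is also known for fat cells that release fatty acids strongly in response to glucagon and that respond weakly to insulin.

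Values are MAS5 signals, the authors' intensity on a linear scale, given as adipose against mix 1, 2, 3 and 4 in that order. A difference is adipose minus the mean of the mixes on the log2(signal + 13.3) scale, where a difference of 2 is 4-fold, and it understates the change of faint genes. A margin is the distance of adipose from the nearest edge of the range of the mixes on the same scale. On adipose the median probe set gave 48, on the mixes 44.8 to 58.1 and on the dimmer liver array 27, over all 38439. Those brighter than 44.1, the median of all values, on 1 or more of the 6 arrays were compared, 25958 in all. Of 13009 named genes on the array 11653 had at least 1 such probe set, and each gene is represented by its brightest such probe set, averaged over the 6 arrays. In the limma fit, where the mixes formed 1 group, 0 of 25958 (0%) passed an adjusted p of 0.05, 1906 had an unadjusted p under 0.05, and the smallest adjusted p was 0.216. With 1 array against 4, the smallest p of an exact permutation test is 0.2 (one-sided), or 0.4 with that tail doubled. Sizes and positions are therefore given as descriptions of these arrays, with no test passed by any gene.

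Adipose lay above all 4 mixes for 6974 probe sets (26.9%), below all 4 for 4080 (15.7%) and inside their range for 14904 (57.4%). At the level of genes these were 2895 (24.8%), 1980 (17%) and 6778 (58.2%) of 11653. This split depended on the scaling: it was 22.4% above and 18.9% below with quantile scaling, 18.3% and 24.5% with trimmed-mean scaling, and 19.8% and 21.3% with spike-in scaling, while the median difference of all probe sets was 0.08, -0.01, -0.11 and -0.07 in turn. Counts of list members below are to be read against 24.8% above and 17% below, for the deposited scaling, all 4 mixes and no floor. Counts with another scaling are to be read against the shares of all probe sets just given for that scaling. Without mix 1 the shares of all probe sets were 33.1% above and 19.2% below, and without mix 2 28.4% and 19.9%. Without mix 3 they were 31.9% and 22.9%, and without mix 4 35.8% and 17.9%. With a floor at the median of all values they were 26.8% and 8.9%. The central 90% of genes had differences between -1.72 and 1.52. Adipose was at least 4-fold above the brightest mix for 133 genes (1.14%) and at least 4-fold below the faintest mix for 19 genes (0.163%). Of probe sets, 272 (1.05%) and 24 (0.0925%) did so. In data simulated as normal values with each probe set's spread between the mixes, 139 unchanged probe sets were also at least 4-fold above the highest mix. With 0.25 times that spread 0 were, so the simulation gives no expected count for adipose. By the same rule, with each of the 5 arrays set against the other 4, 272 probe sets led on adipose, 408 on mix 1, 180 on mix 2, 109 on mix 3 and 744 on mix 4. Of the 133 genes, 44 had mix 3 as their brightest mix (33.1%, against 19.8% of all genes) and 48 had mix 4 (36.1%, against 40.4%). Their signal on adipose was 75.4 to 13564, with a median of 2198, and the median of their brightest mix was 306. Of 68 that had several probe sets, 64 had all of them above the mixes.

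**Figure D1:**
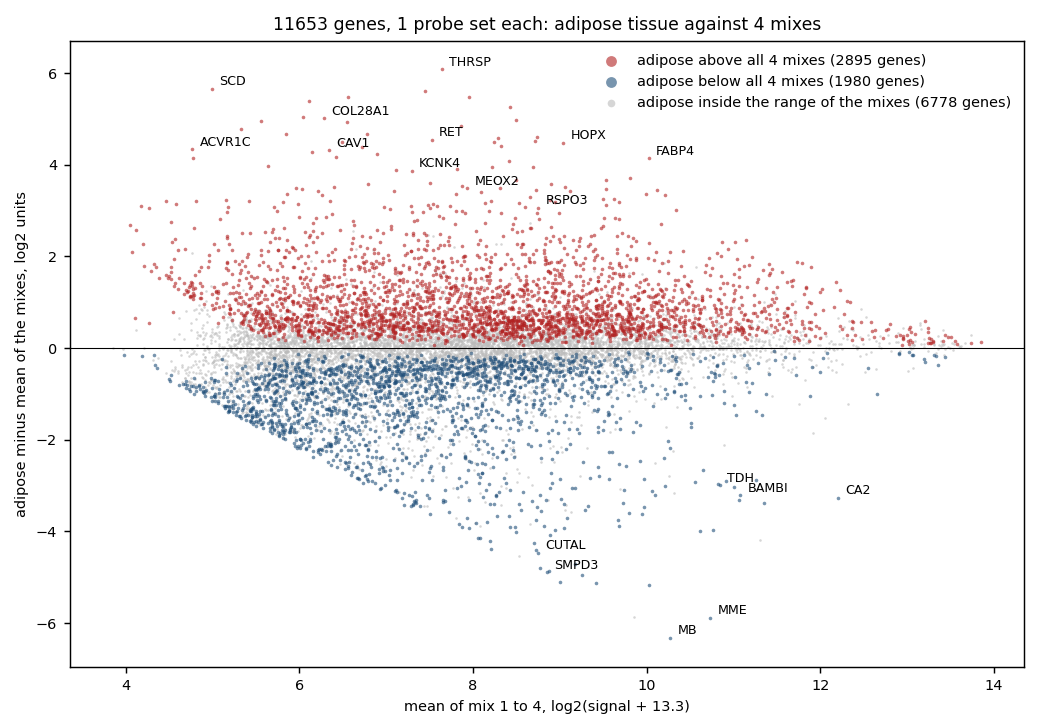
Each point is 1 gene, with the mean of mix 1 to 4 on the horizontal axis (log2 of signal plus 13.3) and adipose minus that mean on the vertical axis (log2 units). Red points are the 2895 genes above all 4 mixes, blue points the 1980 below all 4, and grey points the 6778 inside the range of the mixes; the upper edge holds THRSP and SCD, the lower edge MB and MME.

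Fat-cell genes were bright on the array labelled adipose. Of 19 fat-cell genes on the array, all compared, 16 were brighter on adipose than on every mix and 0 fainter. Their median difference was 4.27, and 12 were at least 4-fold above the brightest mix. Their summed signal was 126157 on adipose and 6869.6 to 16348 on the mixes, and none of them stood at 0 on adipose. PLIN1, the coat of the lipid droplet, gave 11033 on adipose, against 112, 117, 643 and 332 on the mixes. The fatty acid carrier FABP4 gave 18285 on adipose, against 277, 460.2, 4810.2 and 1754 on the mixes. LPL, the lipase that hydrolyses lipoprotein triglyceride, gave 10403 on adipose, against 275, 277, 781 and 491 on the mixes, and PPARG, the nuclear receptor that drives fat-cell formation, 1351 against 39.1, 43, 169 and 32.9. The other 3 lay inside the range. They were ADIPOQ, the hormone adiponectin, at 4236 against 4824, 803, 651 and 720, AGPAT2, an enzyme of triglyceride synthesis, at 393 against 545, 234, 363 and 114, and GPD1, which makes glycerol phosphate and was chosen after its values were seen, at 85.9 against 14.1, 345, 80.3 and 599. In bulk tissue a larger number of cells of a type and more RNA per cell cannot be told apart, here or in what follows.

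Besides fat-cell genes, the 24 widest margins over the mixes included little-described genes, a collagen, a complement gene, the lung-listed HOPX, a receptor kinase, a potassium channel and an angiotensin receptor. C12orf75 gave 4204 on adipose, against 34.7, 77.9, 101 and 144 on the mixes, a margin of 4.74 over the brightest mix. HPS4, part of a complex that helps form lysosome-related organelles, gave 2159 on adipose, against 83.8, 66.2, 33.2 and 39.9 on the mixes. The membrane protein gene FAM57A gave 1446 on adipose, against 13.3, 59.1, 32.7 and 43.1 on the mixes. On liver, the dimmer array with a median of 27, these genes gave 13.3, 22.3 and 4.5, each under the pooled median. The collagen COL28A1 gave 2516 on adipose, against 96.9, 26.6, 63.8 and 96.5 on the mixes, and its probe sets had differences of 3.04 to 5.42. AHNAK2, a large scaffold protein, gave 2032 on adipose, against 164, 56.3, 192 and 130.3 on the mixes. FGL2, a fibrinogen-related secreted protein, gave 3340.1 on adipose, against 291, 177, 234 and 164 on the mixes, with a lower difference of 1.61 by its other probe set.

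Among receptors and channels RET, a receptor tyrosine kinase for ligands of the GDNF family, gave 4273 on adipose, against 105, 124, 234 and 275 on the mixes. Its probe sets had like differences of 4.31 to 4.54. AGTR1, the receptor of angiotensin II, gave 1525 on adipose, against 54.5, 39.2, 139 and 87.9 on the mixes. ACVR1C, a receptor of the activin and nodal family, gave 537 on adipose, against 3.5, 9.9, 14.5 and 37.6 on the mixes, so that each mix was under the pooled median. KCNK4, a potassium channel that sets the resting potential, gave 2276 on adipose, against 121, 127, 146 and 189 on the mixes, with the mixes close together. CAV1, which shapes the caveolae of fat cells and endothelium, gave 1598 on adipose, against 122, 40.8, 50.5 and 78.3 on the mixes. CYP2W1, a cytochrome P450, was less bright at 474 on adipose, against 18.7, 26.7, 14.2 and 2.8 on the mixes. With liver at 6.2 for ACVR1C and 16.7 for CYP2W1, these probe sets entered the comparison through adipose alone, so their lead on adipose was set by the filter.

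The lipid enzymes among the widest margins were SCD, which makes monounsaturated fatty acids, at 1591 on adipose, against 5.9, 12.7, 24.6 and 41.5 on the mixes, and ACSL1, which activates long-chain fatty acids, at 6778 on adipose, against 274, 329, 269.5 and 291 on the mixes. For ACSL1 the 4 mixes lay within a narrow range, and liver stood at 1336. LPIN1, a phosphatidate phosphatase of triglyceride synthesis, gave 1445 on adipose, against 26.6, 45.3, 77.9 and 37.7 on the mixes. G0S2, an inhibitor of the main triglyceride lipase, gave 9573 on adipose, against 167, 312, 842 and 607 on the mixes, and THRSP, a regulator of lipogenesis, 13564 against 47.8, 153, 461 and 318. Liver gave 5651 for THRSP and 195 for SCD, above every mix, and 723 for G0S2, inside the range of the mixes. C4A, a complement component, gave 8453 on adipose, against 72, 117, 189.9 and 392 on the mixes and 7549 on liver, and its difference was 5.61 by this probe set and 1.78 by another. LOC100858647 gave 11383 on adipose, against 182, 201, 532 and 737 on the mixes and 11675 on liver. For both of these genes liver was close to adipose. Of the 133 genes, 17 were within 4-fold of adipose or brighter on liver, and 2 were brighter there. The 133 were picked for a high signal on adipose, which favours a fainter liver, and no share over all genes is set beside these counts.

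**Figure D2:**
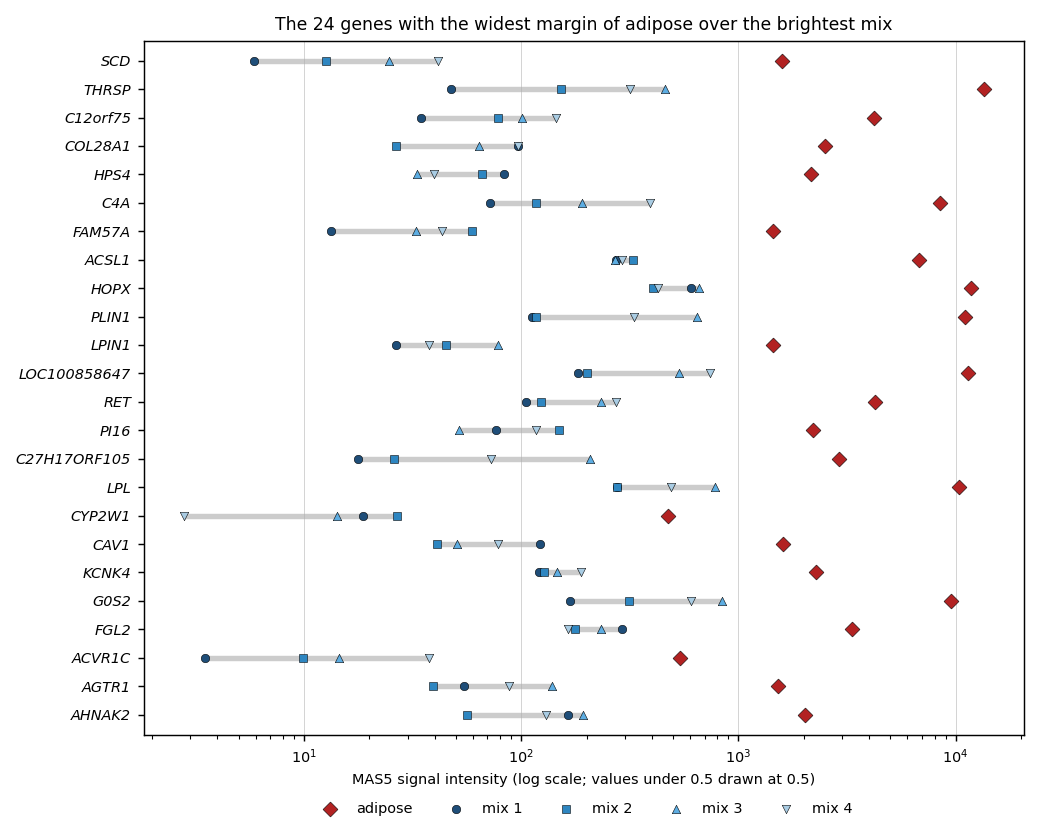
Signal intensity on a log axis for the 24 genes with the widest margin of adipose over the brightest mix, widest at the top. Red diamonds are adipose, blue symbols mix 1 to 4, and the grey bar spans the mixes; every diamond lies to the right of its bar, as for RET at 4273 with a brightest mix of 275, and the bar is short for ACSL1 (269.5 to 329) and long for CYP2W1 (2.8 to 26.7).

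Hormone receptor and cyclic AMP genes were partly high on adipose, with about as many inside the range as outside. Of 37 genes of hormone receptors and cyclic AMP signalling on the array, 33 were compared, and 14 lay above all 4 mixes and 2 below (median difference 0.33, or 0.17 with trimmed-mean scaling), and 17 inside. Without mix 1, mix 2 or mix 3, 4 lay below. GCGR, the glucagon receptor, gave 191 on adipose, against 3.9, 3.9, 14.2 and 15.5 on the mixes, under the pooled median on every mix, and 174 on liver. GHR, the growth hormone receptor, gave 1502 on adipose, against 81.1, 103, 289.8 and 312 on the mixes. ADORA1, an adenosine receptor that restrains lipolysis in mammals, gave 685 on adipose, against 32.1, 20, 29.3 and 218 on the mixes, where mix 4 stood above the other mixes. MRAP, which carries melanocortin receptors to the cell surface, gave 285 on adipose, against 61.3, 41, 31.2 and 50 on the mixes, and liver was brighter than adipose at 2892. Lower than on all mixes were PDE4D, a phosphodiesterase that breaks down cyclic AMP, at 106 against 343, 197, 338 and 332, and LEPR, the leptin receptor, at 2.4 against 4, 10.6, 47.8 and 29.9, faint on every array. The adenosine receptor ADORA2A (123 against 108, 167, 87.4 and 113) and the prostaglandin receptor PTGER4 (179.8 against 476, 115, 188 and 93.2) lay inside the range.

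Insulin signalling and glucose use were mixed. Of 33 genes, all compared, 12 lay above all mixes and 4 below, and the median difference of 0.21 turned to -0.05 with quantile scaling. Without mix 3, 7 lay below. AKT1, a kinase that carries the insulin signal, gave 878 on adipose, against 268, 131, 272 and 268 on the mixes. PPP1R3C, which brings a phosphatase to glycogen, gave 686 on adipose, against 108, 64.8, 243 and 179 on the mixes, and TBC1D4, which holds back glucose transporter vesicles, 1707 against 530, 625, 494 and 631. SOCS2, a feedback inhibitor of growth hormone signalling, gave 405 on adipose, against 141, 202, 108 and 115 on the mixes. On the other side were the glycolytic enzyme PFKL (78.6 against 482, 439, 126 and 856), the glycogen phosphorylase PYGL (277 against 1040.4, 548, 614 and 350.3) and the glucose transporter SLC2A12 (68.1 against 152, 114, 77.8 and 135). The adaptor IRS4 lay just below the mixes at 595 against 676, 749, 1193 and 920.3, but with a difference of 0.20 by its other probe set. NADPH supply stood out little: of 9 compared genes 1 lay above, cytosolic IDH1 (2741 against 2274, 1660.2, 592 and 1088), and 1 below, its mitochondrial relative IDH2 (674 against 2160.3, 1601, 934 and 1119), or 3 below without mix 3.

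Membrane lipid genes lay near the background, with 11 of 43 above and 5 below and a median difference of 0.01. Without mix 1 or mix 3, 9 lay below, and without mix 3 the median was -0.03. The split was 8 above and 8 below with quantile scaling, 7 and 8 with trimmed-mean scaling, and 7 and 7 with spike-in scaling. The brightest relative to the mixes were CDS2, an enzyme of phosphatidylinositol synthesis, at 1990.2 against 399, 269.7, 917 and 369, the elongase ELOVL1 at 1452 against 509, 445, 605 and 643, CHPT1, which makes phosphatidylcholine, at 985 against 305, 325, 436 and 457 and the ceramidase ASAH1 at 5008 against 2643, 1666, 1635 and 1678. PEMT, another route to phosphatidylcholine (399 against 836, 692, 541 and 833), and the sphingomyelin synthase SGMS2 (51.9 against 144, 73.7, 211 and 189) lay below all mixes.

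Among 47 compared genes of secreted signals (49 on the array), 19 lay above all mixes and 9 below (median difference 0.49). ADM, the vessel-dilating peptide adrenomedullin, gave 3027 on adipose, against 690.5, 659, 435 and 969.8 on the mixes. The angiopoietin-like factors were ANGPTL2 (358 against 76.8, 32.5, 70.4 and 52.1) and ANGPTL5 (513 against 194, 13.7, 70.2 and 47.8). FGF7, a growth factor for epithelia made by stromal cells, gave 234 against 61.1, 12.5, 38.5 and 21.7. All 4 were brighter on adipose than on every mix. Lowest against the mixes were FGF13 at 1 against 112, 12.3, 26 and 432, the heparin-binding growth factor PTN at 90.3 against 176, 430.1, 786 and 918, the neuropeptide NMB at 18 against 44.5, 180.3, 45.7 and 309.5 and NRG1, a ligand of ERBB receptors, at 40.7 against 119, 69.5, 80.4 and 1022. For FGF13 and NRG1 another probe set gave smaller differences of -0.51 and -0.44.

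Wnt signalling had members on both edges, 13 of 42 compared genes above and 12 below (48 on the array), with a median difference of -0.05 that stayed negative with the other scalings but was 0.12 without mix 3. RSPO3, a secreted enhancer of Wnt signals, gave 3589 on adipose, against 362, 249, 558 and 597 on the mixes, and FZD4, a Wnt receptor, gave 3890.3 on adipose, against 580.1, 675, 426 and 355 on the mixes. RSPO3 and FZD4 were at least 4-fold above the brightest mix. LGR5, a receptor for R-spondins, gave 194 against 80.5, 45.2, 30.2 and 44.8. The co-receptor LRP6 was faint at 46.7 against 6.7, 4.7, 6.1 and 13.6. With every mix under the pooled median, the filter may have set the lead of LRP6 on adipose. The secreted inhibitors WIF1 (49.3 against 189, 109, 997 and 478) and SFRP1 (57.8 against 315, 207, 141 and 184) lay below all mixes, as did the receptor FZD2 (104 against 190.3, 179.8, 145 and 219). The ligand WNT11 also lay below at 13.7 against 91.9, 24.3, 47.9 and 30.8, but its other probe set had a difference of 0.10. CTNNB1, the beta-catenin that carries the signal, lay inside the range at 5419 against 6596, 5066, 5902 and 6110.5.

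Of 41 compared genes of TGF-beta, activin and BMP signalling (42 on the array), 11 lay above and 9 below (median difference -0.11, or 0.08 without mix 3 and 0.05 without mix 4). The split was 10 above and 11 below with quantile scaling (median -0.28). It was 10 and 12 with trimmed-mean scaling (-0.31), and 10 and 11 with spike-in scaling (-0.31). FST, the activin-binding protein follistatin, gave 789 on adipose, against 95.2, 95.9, 188 and 116 on the mixes. TGFBR3, a co-receptor for TGF-beta and inhibin, gave 592 on adipose, against 127, 92.2, 75.8 and 107 on the mixes, and BMPR2, a receptor for BMPs, 496 against 106, 153, 117 and 201. ID1, a target of BMP signals, gave 2439 against 570, 1020.4, 1046 and 719. At the other edge BAMBI, a decoy receptor that blocks TGF-beta family signals, gave 219 on adipose, against 1748, 1076, 4796 and 2342 on the mixes, one of the widest margins below. GDF10, a BMP-related ligand, gave 37.5 against 116, 244, 206 and 297, SMAD1 77.1 against 201, 134, 194 and 219.9 and ID4 216 against 654, 412, 367 and 434.

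**Figure D3:**
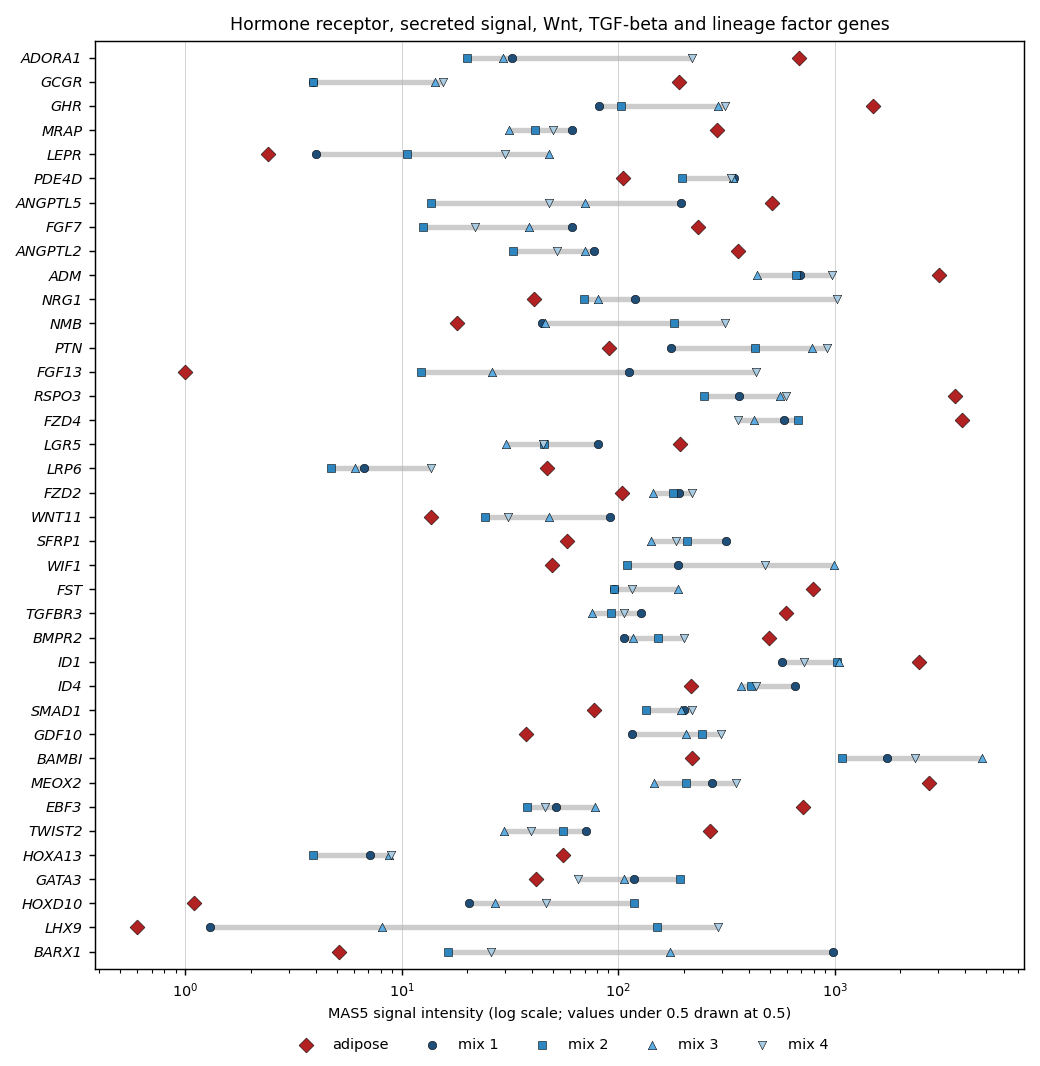
Signal intensity on a log axis for the genes with the widest margins above and below the mixes in the hormone receptor, secreted signal, Wnt, TGF-beta and lineage factor lists. Red diamonds are adipose, blue symbols mix 1 to 4 and grey bars the range of the mixes; RSPO3, FZD4, ADM and MEOX2 stand right of their bars, as for RSPO3 at 3589 with a brightest mix of 597, while BAMBI lies at 219 on adipose with a faintest mix of 1076.

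Vessel genes stood high on adipose. Of 17 compared endothelial genes (18 on the array), 16 were brighter on adipose than on every mix and 0 fainter. Their median difference was 1.91, with a summed signal of 30333 on adipose and 5378 to 6941 on the mixes. The transcription factor SOX7 gave 2468 on adipose, against 449.8, 329, 429.6 and 362 on the mixes, CDH5, the cadherin of endothelial junctions, 4354 against 892, 526, 794 and 633, and PECAM1, another junction protein, 5680 against 538, 302, 615 and 455. The junction protein ESAM was inside the range at 139.9 against 245, 119, 169 and 163. Genes of vessel growth followed with 18 of 38 above and 5 below (median difference 0.63). NRP1, a co-receptor for VEGF, gave 5925 on adipose, against 769, 2292, 1249 and 1528 on the mixes, the sphingosine phosphate receptor S1PR1 713 against 124, 104, 256 and 267, and MET, the receptor of hepatocyte growth factor, 308 against 69.2, 91.5, 15.6 and 70. VEGFA itself gave 305 against 84.6, 77.9, 106 and 69.3. The FGF receptors FGFR2 (132 against 1216, 523, 992 and 835), FGFR3 (149 against 739.6, 228, 759 and 639.8) and FGFR4 (10.2 against 119.8, 114, 88.5 and 11.4) lay below all mixes, while another FGFR3 probe set had a difference of 0.40.

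The lymph vessel list gave no such picture: 2 of 7 compared genes lay above, FLT4 (903 against 204, 279, 289 and 377) and STAB1 (288 against 103, 140.5, 165 and 100.4), and 1 below, RELN (92.1 against 217, 307, 129.9 and 512), whose other probe set had a difference of 0.58. Without mix 3, 4 lay below. PROX1, the factor that specifies lymphatic endothelium, gave 122 against 277, 441, 30.4 and 313 and LYVE1, a hyaluronan receptor of lymph vessels, 128 against 471, 169, 72.5 and 195, both inside the range. Of the 10 genes of pericytes and smooth muscle 3 lay above and 0 below, or 7 above without mix 1. The 3 were PDGFRB (1250.2 against 449, 630, 482 and 605), the potassium channel KCNJ8 (807 against 191, 423, 82.5 and 329) and ACTA2 (51.5 against 4.4, 5.2, 12.5 and 16.5), while the contractile genes MYH11 (1831 against 9761, 815, 282 and 656), TAGLN (3802 against 10855, 1776, 914 and 2412) and DES (399 against 4724, 368, 99.9 and 844) peaked on mix 1. RGS5 (2092 against 2745, 751, 1036 and 920), MYLK (2522 against 11116, 2373, 1656 and 1884), CSPG4 (372 against 279, 79.6, 489 and 169) and ABCC9 (487 against 140.1, 499.6, 214 and 666) lay inside as well. With liver at 7.9, the ACTA2 probe set entered the comparison through adipose alone, so its lead on adipose was set by the filter.

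Stromal progenitor and fibroblast genes were 14 above and 0 below among 21 compared, all on the array (median difference 1.38). PI16, a marker of early stromal progenitors in mouse, gave 2198 on adipose, against 76.8, 149, 51.6 and 117 on the mixes, though another probe set had a difference of 1.14. MFAP5 and FBN1, both parts of elastic microfibrils, were high (MFAP5 4606 against 227, 274, 189 and 556, FBN1 544 against 38.1, 36.2, 90.1 and 46.9), and the small proteoglycan OGN gave 1849 against 357, 347, 113 and 361. DPP4, which marks the same mouse progenitors, lay inside the range at 433 against 3736, 902, 338 and 188, as did the receptor PDGFRA at 247 against 116, 109, 249.8 and 164 and the proteoglycan DCN at 9413 against 4660.4, 3681, 10557 and 6563.

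Basement membrane genes had 13 of 29 compared members above and 2 below (33 on the array, median difference 0.55), or 8 below without mix 3. LAMA4, the laminin chain of vessels and fat cells, gave 1039.9 on adipose, against 447, 195, 347 and 276 on the mixes, and ITGB1, the shared chain of its integrin receptors, 8524 against 4445, 2181, 3738 and 2639. NTN4 gave 264 against 50.1, 89.6, 20.8 and 21.8 and COL15A1 121 against 57.2, 40.9, 55.7 and 65.7. LAMA1, a chain of embryonic and epithelial laminin, lay below the mixes at 10.4 against 66.9, 242, 15.1 and 248, and COL4A4, a kidney collagen chain, at 24.1 against 24.6, 76.1, 27.5 and 39.1. Both were under the pooled median on adipose and on at least 1 mix, and with the floor 0 of the list lay below. The chain LAMB1 was near the mean of the mixes at 1555 against 1736, 2148, 539 and 1911.

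For matrix proteases and their inhibitors 14 of 39 compared genes lay above and 4 below (45 on the array, median difference 0.18, or -0.03 and 9 below without mix 2). With a floor at the pooled median 14 lay above and 0 below, so the order of those below rests on faint signals. ADAMTS2, which trims procollagen, gave 380.3 on adipose, against 27.1, 8.8, 55.3 and 40.7 on the mixes. Its relatives were ADAMTS5 (218 against 24.8, 32.3, 17.7 and 36.1), an aggrecan-cleaving enzyme, and ADAMTS12 (179.6 against 53.4, 19.1, 20.8 and 53.1). For ADAMTS5 each mix was under the pooled median, so the filter may have set its lead on adipose. ADAM12 gave 163 against 43.6, 21.3, 51.1 and 28.5. MMP9, a gelatinase abundant in granulocytes and osteoclasts, lay below at 2.8 against 105, 39, 4649.8 and 1667, with mix 3 far above the rest. MMP7 gave 4.3 against 96.9, 45.5, 18 and 33.9. ADAMTS3 gave 3.5 against 34.2, 79.6, 329 and 56.8, but another probe set had a difference of -0.01.

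Lung genes were high on the same array as the vessel and matrix genes. All 6 lung genes on the array lay above all mixes: the surfactant proteins SFTPA1 (2228 against 28.7, 332, 14.9 and 471) and SFTPA2 (2013 against 10.3, 310.1, 6.7 and 421), HOPX (11723 against 607, 406, 656 and 426), the lung and thyroid factor NKX2-1 (102 against 0.5, 13.5, 2.5 and 60.9), the lipid transporter ABCA3 (873 against 500.5, 250.5, 243 and 283) and LAMP3 (73.9 against 45, 37.5, 40.5 and 34.5). Their summed signal was 17014 on adipose and 963 to 1697 on the mixes, most of it from HOPX, which other tissues also make. None stood at 0 on adipose. The labels do not say which depot was taken, and whether the sample held tissue other than fat was not tested, nor was the part of the lung genes in the vessel, matrix and HOPX values.

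Transcription factors of position and lineage were partly high. Of 71 such genes on the array 60 were compared, 22 lay above all mixes and 4 below (median difference 0.36), or 11 below without mix 1. MEOX2, a homeobox factor of mesoderm and endothelium, gave 2723 on adipose, against 269.5, 205, 146 and 348 on the mixes. EBF3, a relative of factors that act in fat-cell formation, gave 712 on adipose, against 51.7, 38, 78.1 and 45.8 on the mixes, with a difference of only 0.40 by another probe set, and EBF1 gave 993 against 96.6, 173, 318 and 278. TWIST2, a mesenchymal factor, gave 264 on adipose, against 71.1, 55.5, 29.6 and 39.5 on the mixes. All 7 compared HOXB genes, chosen for mention after their values were seen, lay above all 4 mixes: HOXB1 (101 against 48.2, 39.3, 3.4 and 22.8), HOXB2 (197 against 117, 109, 30 and 48.2), HOXB3 (337 against 133, 173, 70.5 and 126), HOXB4 (196 against 97.1, 53.3, 11.2 and 14.4), HOXB5 (259 against 184, 142, 63.5 and 55.8), HOXB6 (162 against 14.2, 53, 22.5 and 36.5) and HOXB7 (219 against 97.7, 109, 70.8 and 89.8). They are homeobox genes that mark position along the body axis, and their signals were modest. Of 10 compared HOXA genes 5 lay above and 0 below, of 2 HOXC genes 0 either way, and of 5 HOXD genes 0 above and 1 below. HOXA13 was above the mixes but faint at 55.7 against 7.1, 3.9, 8.7 and 8.9. Each mix was under the pooled median for HOXA13, so the filter may have set its lead on adipose. HOXD10 was below the mixes at 1.1 against 20.5, 118, 27 and 46.2. BARX1, a factor of stomach and jaw mesenchyme, gave 5.1 against 986, 16.4, 173 and 25.8 and GATA3 41.7 against 118, 192, 106 and 64.9.

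Immediate early and stress response genes stood high. In the immediate early list 14 of 21 compared genes lay above and 2 below (23 on the array), with a median difference of 0.82 that was 0.58 to 0.65 with other scalings. NFKBIA, the inhibitor of NF-kappaB, gave 5818 on adipose, against 1999.5, 1517, 1881 and 1254 on the mixes, and the survival factor MCL1 gave 3785 against 1436, 964, 1595 and 933. The zinc finger factors were KLF2 (2978 against 1075, 595, 1236 and 668) and KLF6 (3603 against 1487, 792, 1267 and 1031). DUSP4, a phosphatase of MAP kinases, lay below at 54.7 against 114, 139, 155 and 142, as did TNFAIP3, another NF-kappaB inhibitor, at 152 against 266, 219, 294 and 163. MYC was inside the range at 679 against 768, 389, 624 and 307. KLF9, a target of thyroid hormone and glucocorticoid, had the widest margin of its list at 1827 on adipose, against 142, 199, 252 and 363 on the mixes. That list of thyroid hormone and glucocorticoid response had 8 of 21 compared genes above and 1 below (25 on the array), or 3 below without mix 1 and 4 below with a median difference of -0.03 without mix 3. PDK4, which turns off glucose oxidation, gave 8375 against 2752, 4510.1, 3076 and 2892, SRD5A3 1207 against 457, 442, 572 and 608 and ERRFI1 509 against 316, 286, 339 and 424, while the receptor CRHR1 was near the floor at 1.3 against 14.1, 13.7, 5.8 and 66.

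Clock genes had 9 of 18 members above all mixes and 2 below. The split was 5 above and 5 below with quantile scaling, 6 and 6 with trimmed-mean scaling, and 5 and 4 with spike-in scaling. Without mix 3, 4 lay below. NFIL3, a repressor in the clock, gave 986 on adipose, against 194, 193, 515 and 305 on the mixes, the activator HLF 1482 against 459, 545, 145 and 1174 and PER2, a core repressor, 592 against 332, 155, 219.7 and 211. CLOCK itself gave 1025 against 846, 421, 666 and 510.5. BHLHE40, another repressor, lay below at 338 against 609, 408, 785 and 632, and PER3 inside at 97.3 against 204, 111, 83.7 and 77.3.

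Genes of protein quality control had small differences whose direction depended on the scaling for chaperones and lysosomes. Of 26 proteasome genes, all compared, 13 lay above and 1 below (median difference 0.36), but with quantile scaling it was 8 and 5 with a median of 0.01. PSMA6, a subunit of the proteasome core, gave 4288 on adipose, against 2569.8, 1739, 1971 and 1968 on the mixes, PSMA1 gave 3147 against 2065, 1433, 1978 and 1929.7, while the 1 below, PSMD2 of the cap, gave 374 against 536, 499, 452 and 719. In the chaperone list 12 of 36 genes lay above and 4 below (median difference 0.12, negative with the other scalings), or 9 below without mix 3. The endoplasmic reticulum chaperones were HSPA5 (5295 against 2750.3, 2846, 2300.4 and 3213) and CANX (2529.5 against 1574, 1391, 1308 and 1389.8). Cytosolic HSPA2 gave 7448 against 2909.8, 3783, 4301 and 4339. CRYAB, a small heat shock protein of muscle and lens, lay below at 15.8 against 89.1, 425, 42.3 and 1162, and CALR, the chaperone calreticulin, at 809 against 1449, 1652, 1070.3 and 1039. Lysosome and autophagy genes had 15 of 42 compared members above and 3 below (43 on the array), with a median difference of 0.15 that was negative with the other scalings, or 6 below without mix 3. The protease CTSZ gave 4660.5 against 1761, 1603, 1293 and 879, LIPA, the lysosomal lipase that frees fatty acids and cholesterol, 2614 against 1213, 878, 813 and 674, UVRAG 443 against 203, 137, 136 and 135 and the kinase ULK2 214 against 49.4, 64.1, 70.6 and 90.4.

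Antioxidant and metal genes included SOD3, the extracellular superoxide dismutase of vessel walls, at 5761 on adipose, against 677, 716, 1420.1 and 624 on the mixes. GPX4, which reduces lipid peroxides in membranes, gave 9746 on adipose, against 2948, 4547, 1332 and 2983 on the mixes, with SELENBP1 at 1507 against 735, 669, 286 and 469 and HMOX2 at 1480.4 against 602, 838, 242 and 676. Of 51 genes, all compared, 17 lay above and 9 below, or 9 and 12 with trimmed-mean scaling. The haem-degrading pair HMOX1 (126 against 480.1, 684, 700.5 and 206) and BLVRA (53.8 against 151, 371, 357 and 273) lay below all mixes, as did the macrophage metal transporter SLC11A1 at 2.6 against 11.7, 53.6, 32.1 and 49.3. Of 24 eicosanoid genes 6 lay above and 1 below, or 2 to 5 below without 1 of the mixes. The split was 5 above and 3 below with quantile scaling, 4 and 4 with trimmed-mean scaling, and 4 and 5 with spike-in scaling. PTGDS, a prostaglandin D synthase, gave 8143 against 3856, 1801, 2034 and 3769, the transporter SLCO2B1 1603 against 709, 445, 556 and 287, ALOX5, the first enzyme of leukotriene synthesis, 241 against 82.4, 66.6, 162 and 90.2, and the epoxide hydrolase EPHX2 543 against 385, 323, 89 and 179.

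Macrophage genes were partly high. Of 15 genes, all compared, 8 lay above and 2 below (median difference 0.80), or 4 above with quantile scaling, and the summed signal was 37669 on adipose against 18902 to 35169 on the mixes. CSF1R, the receptor for the macrophage growth factor, gave 3329 on adipose, against 813, 1051, 2235 and 1352 on the mixes. The mannose receptor MRC1 gave 216 against 48.7, 36.9, 159 and 100.4, and the complement genes were C1QA (1802 against 1058, 1277, 1210.2 and 572) and C1QC (2275 against 1014, 1359, 1288 and 621). TREM2, a lipid-sensing receptor, lay below at 29.7 against 67.9, 80.6, 66 and 48.9, though with a difference of 0.16 by its other probe set, and TIMD4, a marker of resident macrophages in mouse, at 91.6 against 310.5, 212, 146 and 124.

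Lymphocyte and granulocyte genes were not high. Of 13 compared T and NK cell genes (15 on the array) 0 lay above and 2 below, CD5 at 42.9 against 167, 123, 106 and 53.3 and CCR7 at 24.9 against 30, 37.9, 92 and 33.7. Without mix 1, 2 lay above, and without mix 4, 7 lay below. GZMA, a protease of killer cells, peaked on mix 1 at 516 against 6342, 537, 288 and 92.6. Of 9 compared B and plasma cell genes (11 on the array) 1 lay above, EBF1, which fat-cell precursors also use, and 3 below: CD79B (33.9 against 109, 162, 81.5 and 55.4), PAX5 (33.8 against 70.9, 53.7, 35.9 and 54.8) and TNFRSF13B (3.1 against 28, 46.2, 12.1 and 5.1). Without mix 4, 7 of these 9 lay below. JCHAIN of antibody-secreting cells gave 1468 against 5728, 5038, 5315 and 896. The granulocyte and mast cell list had 4 compared genes of 6 on the array and put 3 below: MMP9, KIT (104 against 187, 134, 735 and 485) and CSF3R (27.8 against 28.9, 41.9, 412 and 68.6), with HDC inside at 71.7 against 208, 48.8, 301 and 49.8. With a floor at the pooled median 1 of this list lay below. Interferon response genes were inside the range in 26 of 28 compared cases, and the receptor chains IFNAR1 (1124 against 299, 299, 781 and 368) and IFNAR2 (1829 against 1370.4, 1012, 1283 and 1178) lay above all mixes. These counts depended on mix 1. Without it 8 of 28 lay above, where 33.1% of all probe sets did, and the median difference was 0.21, against -0.06 with mix 1. Without mix 3, 4 lay above. Of 17 compared antigen presentation genes 3 lay above and 1 below, or 9 above without mix 1 and 4 below without mix 4. LGMN, a lysosomal protease that prepares antigens, gave 6273 against 2373, 4480, 1681 and 983, CD83 401 against 327, 210.4, 133 and 75.8 and CD86 52.1 against 39.8, 44.2, 40.7 and 32.1.

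Apart from the lung genes described above, all 6 of which lay above all mixes, markers of neighbouring tissues were mostly low or inside the range. The 15 compared skeletal muscle genes had 0 above and 4 below, a median difference of -2.65 (-1.41 without mix 4, and -3.99 with 15 of 15 below without mix 1) and a summed signal of 1618 on adipose against 9648 to 93297 on the mixes. MB, myoglobin, gave 2.1 on adipose, against 11646, 2671, 81.9 and 771 on the mixes, and the fast light chain MYLPF 7.4 against 30.7, 69.1, 256 and 6773, but ACTA1 was not absent at 1061 against 933, 2923, 5012 and 15770. Hepatocyte genes had 1 of 15 above and 7 below, with ALB, serum albumin, at 68.4 against 168, 1844, 315 and 4698, FGG, a fibrinogen chain, at 6.2 against 56.6, 383, 52.4 and 890.5 and AHSG at 1 against 22, 132, 21 and 223. The 1 above, HAL, was at 27.1 against 10.2, 13.6, 14.7 and 3.4, under the pooled median on each of these arrays. On adipose 11 of the 15 hepatocyte genes were under the pooled median, and with a floor there 0 lay above and 3 below.

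Red-cell genes summed to 8298 on adipose and 5212 to 37839.6 on the mixes, with 0 of 8 above and 1 below, HBE (33.8 against 53.9, 99.3, 748 and 559). Without mix 1, 5 lay below, and the median difference of -1.48 was -0.49 without mix 3. The alpha globin HBA1 gave 6297 against 4071, 8807, 11168 and 13390.4, HBAD 1468 against 912, 1939.7, 14334 and 12555 and the anion exchanger SLC4A1 276 against 78, 259, 8216 and 1888. The other members lay inside the range, namely HEMGN (34.6 against 11.4, 119, 572 and 247), EPB42 (41.4 against 8.8, 67.4, 2469 and 259), TAL1 (125 against 58.4, 332, 328 and 86.3) and HBZ (21.4 against 18.1, 52.8, 4.3 and 37.9). Of 8 compared mesothelial genes 2 lay above, UPK1B (276 against 41.3, 41.2, 15.5 and 90.1) and MSLN (128 against 41.5, 60.9, 48.3 and 52.3), and 1 below, CALB2 (23.5 against 49.3, 72.2, 41.2 and 328). The rest lay inside, namely RSPO1 (47.6 against 49.8, 14.5, 15.6 and 16.5), UPK3A (49 against 50.1, 39.4, 10.9 and 27.3), LRRN4 (189 against 85.7, 141, 47.7 and 208), ALDH1A2 (139 against 63.4, 651, 67.6 and 921) and GPM6A (8.7 against 13.2, 51.6, 8 and 6185). Without mix 1, 4 lay above. The list summed to 861 on adipose and 255 to 7829 on the mixes.

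Of nerve sheath genes 1 of 9 compared lay above, PMP22 (1205 against 669, 347, 630.4 and 551), and 0 below, or 2 below without mix 1 or mix 3. MBP, a myelin protein, gave 410.4 against 47.5, 19.3, 25.9 and 4841, with mix 4 alone higher, while SOX10, which marks Schwann cells, was faint at 33.5 against 89.7, 64, 5.4 and 246. The other members were S100B (41 against 139, 38.3, 21.5 and 125), CDH19 (28.6 against 61.8, 40.5, 28.1 and 89.4), GFRA3 (24.3 against 61.5, 49.3, 27 and 18.6), NGFR (17.4 against 4.5, 72.6, 30.7 and 8.2), FABP7 (194 against 91.3, 978, 271 and 919) and NCAM1 (32.5 against 6.2, 103, 579 and 579). Among genes of the thyroid, parathyroid and thymus 4 of 11 were compared. SLC5A5 lay above (60.4 against 30.2, 28.1, 33.1 and 37.6), CASR below (20.2 against 63.5, 116, 39.4 and 86.4), and TSHR (38.9 against 18, 18.9, 76 and 51.4) and CALCA (74.7 against 35.9, 73, 126 and 44.9) inside. Of 11 compared skin genes 3 lay above by small margins, KRT14 (173 against 53.2, 132, 35.6 and 116), PKP1 (89.1 against 78.7, 18.6, 52.5 and 46) and KRT75 (58.4 against 45.1, 31.8, 38.5 and 48.3), and 0 below, or 5 above without mix 1 and 2 below without mix 3. The junction proteins EPCAM (419.9 against 11015, 1714, 28.9 and 104) and DSP (63.8 against 1309, 327, 11.2 and 367) peaked on mix 1.

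Mitochondrial genes lay near the background, and one-carbon genes leaned low. Of 26 compared genes of mitochondrial control (29 on the array), 6 lay above and 3 below (median difference -0.10), or 6 below without mix 3. The split was 3 above and 5 below with quantile scaling (median -0.29). It was 3 and 6 with trimmed-mean scaling (-0.31), and 3 and 4 with spike-in scaling (-0.27). COX8A, a subunit of cytochrome oxidase, gave 3673 against 3493, 2249, 1219 and 2535, the coactivator PPARGC1B 81.2 against 55.7, 46.4, 38.1 and 48.3 and CIDEA, a lipid droplet protein of mammalian brown fat, 68.5 against 54, 25.1, 46.2 and 33.7. Of the creatine pathway, 2 genes lay below, the kinase CKB at 3208 against 9746, 4289, 5515 and 7434 and GAMT, which makes creatine, at 8.5 against 10.3, 839, 45.2 and 364. The serine and one-carbon list had 1 of 25 genes above and 7 below (median difference -0.24), or 15 below without mix 3 and 4 above without mix 4. MTR, methionine synthase, was the 1 above at 551 against 353, 484, 441 and 354. MAT1A, which makes the methyl donor in liver, gave 54.9 against 392, 4238, 127 and 400.4, PSPH, the last step of serine synthesis, 102 against 582, 1732, 158 and 1306, and TYMS, thymidylate synthase of dividing cells, 148 against 322, 919, 819 and 1392.

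**Figure D4:**
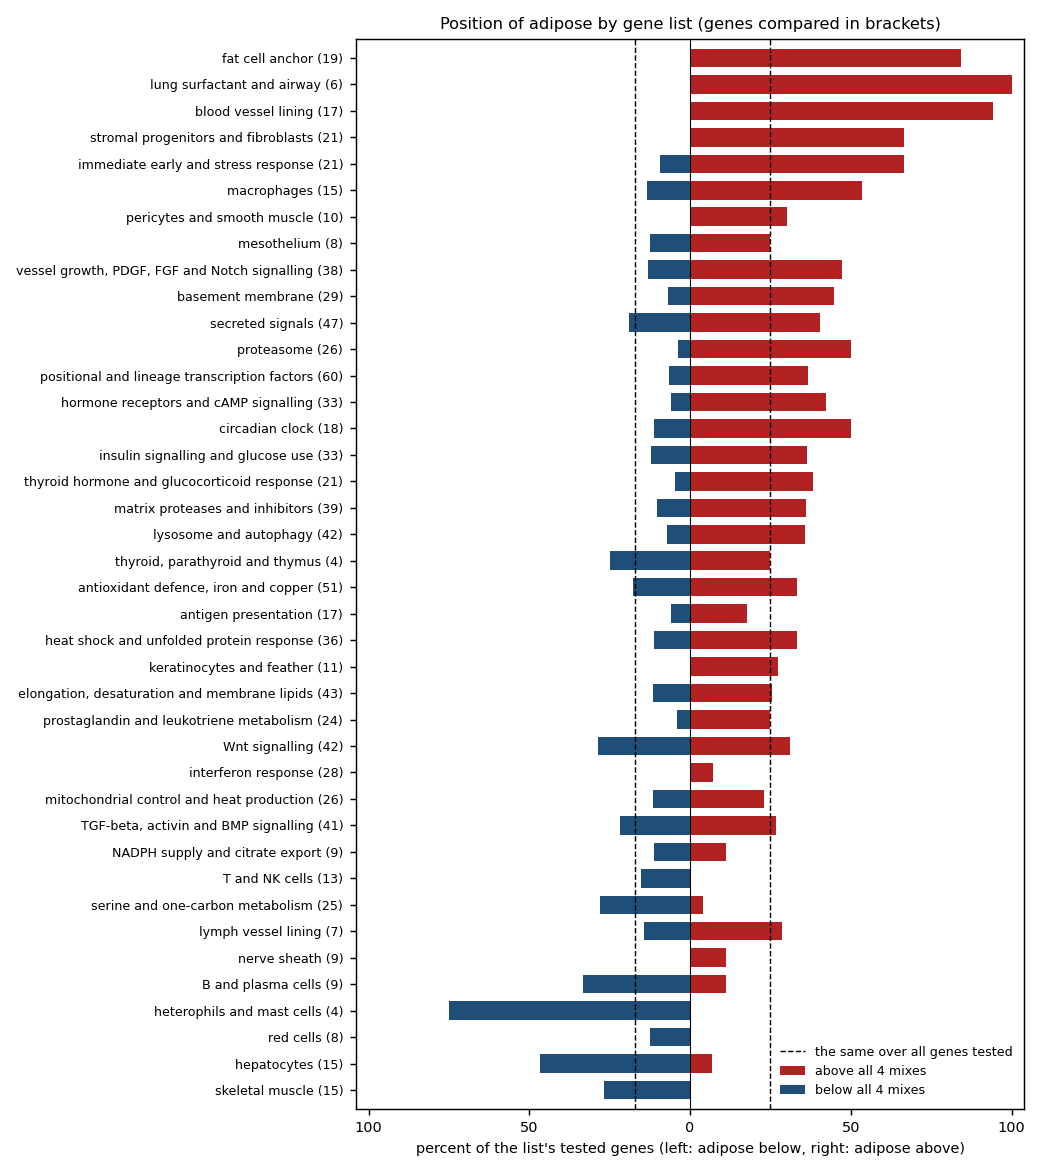
Share of each list's compared genes for which adipose lay above all 4 mixes (red, to the right) or below all 4 (blue, to the left), in percent, ordered by the median difference. Dashed lines mark the same shares over all 11653 genes, 24.8% and 17%. The fat-cell, lung, blood vessel, stromal and immediate early lists reach 66.7% to 100% above. The skeletal muscle, red-cell, T and NK cell, and heterophil and mast cell lists have 0 above.

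The genes furthest below the mixes were peptidases, a collagen, enzymes and signalling genes. MME, a cell surface peptidase known as neprilysin, gave 15.4 on adipose, against 2579, 1798, 1174 and 1484 on the mixes, a margin of 5.37 and the widest of all 11653 genes on that side. Its probe sets had differences of -5.89 to -3.42, and liver was as faint at 14.2. ENPEP, an aminopeptidase that cleaves angiotensin II, gave 14.9 on adipose, against 4053, 162, 476 and 133 on the mixes. CUTAL gave 6.2 on adipose, against 497, 346, 593 and 297 on the mixes, and the collagen COL24A1, which is found in forming bone, gave 8.7 on adipose, against 189.5, 213, 984 and 646 on the mixes. SMPD3, a sphingomyelinase of cartilage and bone, gave 2.2 on adipose, against 143, 104, 1638 and 1466 on the mixes, or a difference of -2.01 by its other probe set. FABP1, the fatty acid carrier of liver and gut, gave 6.1 on adipose, against 15816, 529, 125 and 169 on the mixes and 12136 on liver.

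Some genes far below the mixes still gave a signal over the pooled median on adipose. CA2, a carbonic anhydrase, gave 478 on adipose, against 3798, 2474, 12236 and 4298 on the mixes, TDH, which breaks down threonine, 217 against 1132, 1992, 2766 and 1773, and BAMBI was described above. PLCG1, a phospholipase in growth factor signalling, gave 49.2 on adipose, against 312, 755, 353 and 578 on the mixes, but its probe sets ranged from -2.95 to -0.38. GRTP1, a protein named for its regulation by growth hormone in mouse, gave 33 on adipose, against 764, 399, 258 and 501 on the mixes. NKX6-1, a homeobox factor of islets and neural tube, gave 21.8 against 603, 153, 1364 and 543, and MCOLN2, a cation channel of endosomes and lysosomes, 3.5 against 169.9, 145, 179 and 95.1 with 1740.2 on liver. Of the 19 genes at least 4-fold below the faintest mix, 15 were brighter on liver than on adipose. These genes were picked for a low signal on adipose (median 21.8), which favours a brighter liver. No share over all genes is set beside this count, so it shows no likeness of liver to the mixes.

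**Figure D5:**
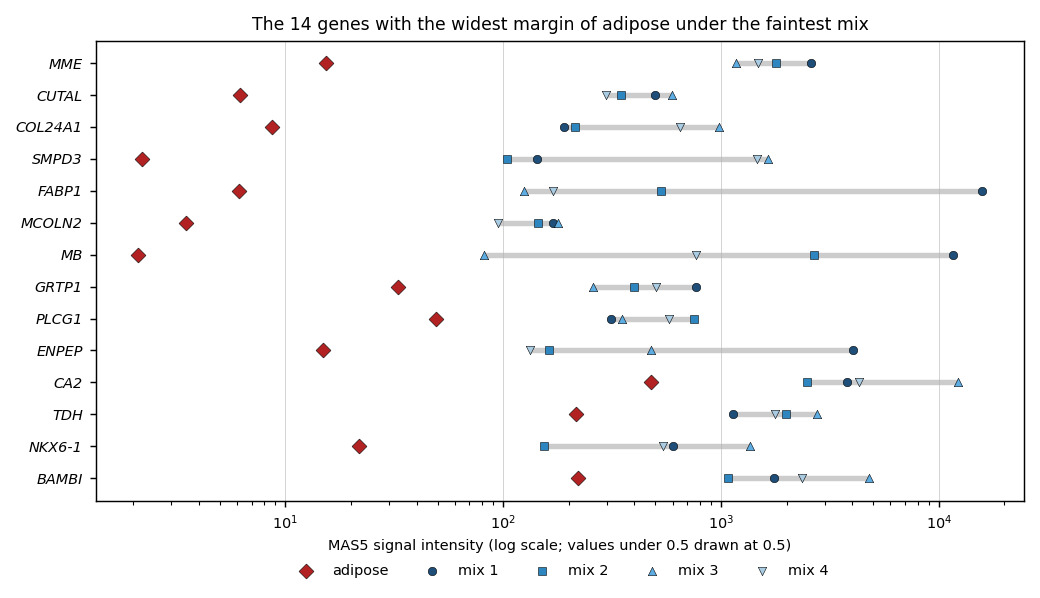
Signal intensity on a log axis for the 14 genes with the widest margin of adipose under the faintest mix, widest at the top. Red diamonds are adipose, blue symbols mix 1 to 4 and grey bars the range of the mixes; adipose lies at 15.4 for MME with a faintest mix of 1174, whereas CA2, TDH and BAMBI stand at 478, 217 and 219 on adipose.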

How the data were processed

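Each sample was measured on 1 array, from Trizol-extracted total RNA made into biotinylated cRNA per the labels' protocols. The authors deposited linear signal intensity made with MAS5, per the submitters' processing notes, whose version and scaling target were not given in the sources used here. Of 38535 probe sets, 96 Affymetrix controls were left out. Of the other 38439, 27168 had 1 gene symbol in the platform annotation, 177 had several and 11094 had none listed, and only the first were named. The deposited scaling was kept, and values became log2(signal + 13.3), 13.3 being the 25th percentile of all values. Probe sets over 44.1, the pooled median, on at least 1 of the 6 arrays were compared. A gene was represented by its probe set with the highest mean over the 6 arrays; 130 genes passed through adipose alone. Arrays have no read depth, and the number of arrays limits the precision.

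Groups were taken from the sample titles. The description field of the labels names adipose for all 6 samples and does not separate them. Positions and sizes carry no test. As the only fit across all probe sets, limma 3.58.1 in R 4.3.3 (eBayes with a trend, two-sided, Benjamini-Hochberg at 0.05) took the mixes as 1 group, with 3 residual and 2.56 prior degrees of freedom, and assumed that adipose varies like the mixes. The fit was first checked on simulated data. With the spread between the mixes it found 2%, 30%, 58% and 80% of added changes of 2, 4, 6 and 8 log2 units. With 0.25 times that spread it found 78% to 100%. At the full spread 139 unchanged probe sets also lay at least 4-fold above the highest simulated mix, and at 0.25 times that spread 0 did. A gene that did not pass is therefore not shown to be unchanged. The 40 gene lists (17 of cell type markers, 23 of pathways), their members and the comparison itself were chosen with earlier results of these data known. Genes named are those with the 24 widest margins above and 14 below, in each list the 4 widest each way and the 3 nearest to the mean, all members of lists of 12 or fewer, the 8 whose probe sets disagree most, and PLIN1, FABP4, LPL, PPARG and ADIPOQ; a few of each are printed, and others are marked where they appear. The alternatives were other scalings, pseudocounts, a floor, other filters, each mix left out, the mean of all probe sets of a gene, and the median of the mixes. No sequences are shown.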

Additional observations from a re-analysis of the deposited data

How the results depend on the processing

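The counts of probe sets above all 4 mixes, and of those at least 4-fold above the brightest, stayed within 1.5 times of 6974 and 272 under each alternative that changed the scaling, pseudocount, floor or filter, at 4728 to 9585 and 197 to 331. Counts below moved more: the 4080 probe sets below all 4 mixes were 6344 with trimmed-mean scaling and 2310 with a floor at the pooled median. With no filter 38439 probe sets were counted, with 9585 above and 6367 below. As shares these were 24.9% and 16.6%, against 26.9% and 15.7% with the filter. The 24 at least 4-fold below the faintest mix were 7 with the pooled median as pseudocount, 240 with a pseudocount of 1 and 12 with the floor. Leaving out each mix in turn gave 7377 to 9280 above, 4651 to 5936 below, 294 to 399 at least 4-fold above and 33 to 129 at least 4-fold below, the last 95 without mix 1, 50 without mix 2 and 129 without mix 3. The limma fit was run under the 12 alternatives that bear on probe sets, not under the mean of a gene's probe sets or the median of the mixes, and 0 passed in 11 of them, with 703 under the floor, where 852 probe sets had all 4 mixes at the floor and so no spread. The median of the insulin and glucose list turned to -0.046 with quantile scaling and -0.0014 with trimmed-mean scaling. No paired analysis was possible because each group has 1 array. Faint signals have no firm order, and without replicate arrays no difference has an error.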

Other observations

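Some genes at least 4-fold above the brightest mix are neighbours on the chicken genome (GRCg7b): CAV1 and CAV2, PEX11A and PLIN1, PEX11A and MINAR1, GSTT1 and GSTT1L, TEX2 and PECAM1, SFTPA1 and SFTPA2, SGTB and NLN. Whether such pairs are more frequent here than among all genes was not tested. CAV2, a partner of CAV1 in caveolae, gave 7466 on adipose, against 1002, 863, 506 and 962 on the mixes. PEX11A, a gene of peroxisome division, gave 247 on adipose, against 18.6, 27.5, 3 and 15.8 on the mixes. Each mix was under the pooled median for PEX11A, so the filter may have set its lead on adipose. The same holds for MINAR1, at 178 on adipose with a brightest mix of 33.4. GSTT1, a glutathione transferase, gave 4462 on adipose, against 853, 399, 352 and 374 on the mixes, and GSTT1L 6141 against 1085, 283, 565 and 420.5. Probe sets of closely related genes may share signal, which was not tested for GSTT1 and GSTT1L or for SFTPA1 and SFTPA2. NLN, a peptidase, gave 1086 on adipose, against 126, 154, 114 and 209 on the mixes. These genes other than PLIN1, CAV1, PECAM1, SFTPA1 and SFTPA2 were chosen after their values were seen.

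Of the 272 probe sets at least 4-fold above the brightest mix, 214 had 1 gene symbol and stood for 159 genes, and 58 had none or several and are not named. Of 1545 genes with several probe sets whose brightest lay above all mixes, 913 had all of them above and 82 had another below. Of the 133 genes at least 4-fold above, 14 exceeded the pooled median on adipose alone.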
